A study of Mus musculus with 6 samples.

Results

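The proximal microRNAs of the imprinted Dlk1-Dio3 domain are 10 hairpins between the Meg3 and Rian genes on mouse chromosome 12: Mir673, Mir493, Mir337, Mir540, Mir665, Mir431, Mir433, Mir127, Mir434 and Mir136. They were taken by name, and every sequenced tag of 18 to 26 bases that matched one of these hairpins exactly on the sense strand was counted per arm. All 10 hairpins, of 1174 searched, gave tags, and their 20 arms were among 1264 arms with tags. Of the 20 arms, 15 reached 100 tags per 1000000 microRNA tags (CPM) in at least 1 library, 3 reached 10 CPM but not 100, and 2 (miR-673-3p and miR-665-5p) stayed under 10 CPM in all 6. The data are 6 small RNA libraries from J1, a mouse embryonic stem cell line grown here without feeder cells on gelatin, with 1000 U/ml of leukaemia inhibitory factor (LIF) in all groups, vehicles included. The agents, each given for 24 h, were retinoic acid at 1 µM, BIO at 1 µM, CHIR99021 at 3 µM and vitamin C at 50 µg/ml, and the control cells had 1 µL of a vehicle. DMSO was the vehicle for the first 3 compounds and ddH2O the vehicle for vitamin C. Each group held 1 library, so no difference given here has a replicate check.

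The Dlk1-Dio3 domain codes for proteins on the paternal chromosome and for non-coding RNAs, these microRNAs among them, on the maternal one. Several of the hairpins are cut from a transcript that runs opposite to Rtl1, a retrotransposon-derived gene needed in the placenta, and their mature products are perfectly complementary to the Rtl1 mRNA, which they can direct to cleavage. Expression from the domain varies between pluripotent cell lines and has been tied to the developmental potential of mouse induced pluripotent cells. Retinoic acid drives embryonic stem cells out of self-renewal, both BIO and CHIR99021 block GSK3, a kinase that holds Wnt signalling in check, and vitamin C is a cofactor of enzymes that demethylate DNA and histones.

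The hairpins lie on the plus strand over 23.4 kb of GRCm38 (chr12:109571990-109595388), beginning 264 bases past the end of Meg3. The first 5 come before Rtl1: Mir673 at chr12:109571990-109572080, Mir493 at chr12:109580233-109580315, Mir337 at chr12:109585789-109585885, Mir540 at chr12:109586080-109586146 and Mir665 at chr12:109586314-109586407. The other 5 lie inside the coding exon of Rtl1, which is on the minus strand: Mir431 at chr12:109590447-109590537, Mir433 at chr12:109591715-109591838, Mir127 at chr12:109592846-109592915, Mir434 at chr12:109594506-109594599 and Mir136 at chr12:109595327-109595388. All 20 RefSeq mature sequences (GRCm38.p6) were found by name, and each has a seed (bases 2 to 8) that no other of the 20 shares. Outside the group, the seed of miR-673-5p is shared with miR-6985-3p and that of miR-540-3p with miR-6915-5p, among 1738 mature entries. Printed here, with the seed in capitals, are the mature sequences of the 3 most abundant arms and of the 7 other arms that passed the threshold for a difference in some comparison.
miR-433-3p: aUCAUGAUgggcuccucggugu
miR-127-3p: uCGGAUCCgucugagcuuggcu
miR-434-3p: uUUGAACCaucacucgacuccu
miR-431-5p: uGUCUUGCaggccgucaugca
miR-136-5p: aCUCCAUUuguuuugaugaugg
miR-136-3p: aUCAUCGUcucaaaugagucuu
miR-337-3p: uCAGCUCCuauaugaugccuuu
miR-540-5p: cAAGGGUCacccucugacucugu
miR-540-3p: aGGUCAGAggucgauccugg
miR-493-3p: uGAAGGUCcuacugugugccagg

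Both arms of the 5 hairpins inside Rtl1 are complementary over their whole length to 1 site each in the Rtl1 transcript of 6358 bases. The sites of 1 arm per hairpin are printed 5′ to 3′ on the Rtl1 strand, with the bases that pair with the seed in capitals, in the order in which they come in the transcript. They begin at transcript base 164 for miR-136-3p, 965 for miR-434-3p, 2642 for miR-127-3p, 3749 for miR-433-3p and 5072 for miR-431-5p. None of the mature sequences of the 5 hairpins before Rtl1 has such a site.
Rtl1 site of miR-136-3p: aagactcatttgagACGATGAt
Rtl1 site of miR-434-3p: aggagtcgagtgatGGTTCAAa
Rtl1 site of miR-127-3p: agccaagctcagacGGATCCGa
Rtl1 site of miR-433-3p: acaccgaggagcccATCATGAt
Rtl1 site of miR-431-5p: tgcatgacggcctGCAAGACa

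The libraries held 18870345 to 23758363 tags, of which 3.76% (retinoic acid) to 11.4% (DMSO) were microRNA tags, or 729178 to 2155067 tags. Reads carry no molecular identifiers and are not independent molecules, so the intervals given here cover counting error only. A count of 0 allows up to 1.39 to 4.11 CPM, taken as 3 tags. The embryonic stem cell hairpins (9 of 10 listed were found, 17 arms) made up 15.4% (retinoic acid) to 31.9% (CHIR99021) of microRNA tags, with at most 1 of these arms at 0 in a library. The summed marker levels of other cell types ran from 1255 to 5808 CPM for neurons, 588.7 to 6326 for muscle, 1473 to 2218 for fibroblasts, 101 to 182 for blood and 22.4 to 1325 for liver. In bulk libraries, fewer cells of a type and less RNA per cell cannot be told apart. The submitters report the loss of the raw data behind the BIO counts.

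Together the 10 hairpins made up 2.12% in DMSO, 2.12% in ddH2O, 3.13% in retinoic acid, 1.61% in BIO, 1.196% in CHIR99021 and 2.32% in vitamin C of microRNA tags. The vehicles held the same share, the retinoic acid library the highest and the CHIR99021 library the lowest. Per 1000000 tags of any kind the order differed, with 2417 in DMSO, 1817 in ddH2O, 1177 in retinoic acid, 1517 in BIO, 719 in CHIR99021 and 2129 in vitamin C. The DMSO library was the highest on that scale, and the retinoic acid library, in which microRNAs took the smallest share of all tags, came below every library but CHIR99021. miR-127-3p and miR-433-3p alone held 68.6% (vitamin C) to 80.6% (BIO) of the member tags, and with miR-434-3p 85.1% to 87.0%.

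The 5 hairpins inside Rtl1 included the 3 most abundant ones. miR-433-3p was measured at 8660.1 CPM in DMSO, 7730.2 in ddH2O, 10892 in retinoic acid, 7588 in BIO, 4799 in CHIR99021 and 7675 in vitamin C. miR-127-3p, from the hairpin that follows, was at 7813 CPM in DMSO, 8583 in ddH2O, 11532 in retinoic acid, 5371 in BIO, 4379 in CHIR99021 and 8242 in vitamin C. miR-434-3p was at 1659 CPM in DMSO, 1862 in ddH2O, 4704 in retinoic acid, 1036 in BIO, 999 in CHIR99021 and 4118 in vitamin C. For the first 2 the retinoic acid library was highest and the CHIR99021 library lowest, with the vehicles between, while miR-434-3p stood high in both retinoic acid and vitamin C. The hairpin levels kept these 3 in the first 3 places in every library, and Mir127 and Mir433 exchanged the first place: Mir433 led in DMSO, BIO and CHIR99021 and Mir127 in the other 3, in each case without overlap of the counting intervals.

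The other arms of these hairpins, and both arms of Mir431 and Mir136, were less abundant. Mir431 is known from work on axon regeneration and muscle stem cells. miR-431-5p was at 122 CPM in DMSO, 202 in ddH2O, 413 in retinoic acid, 102 in BIO, 85.4 in CHIR99021 and 203 in vitamin C. miR-431-3p, the other arm of that hairpin, was at 243 CPM in DMSO, 197 in ddH2O, 288 in retinoic acid, 161 in BIO, 145 in CHIR99021 and 259 in vitamin C. The 5p arm was the higher of the pair in retinoic acid and, by little, in ddH2O, and the lower one in the other 4 libraries. miR-136-5p was at 197 CPM in DMSO, 257 in ddH2O, 422 in retinoic acid, 159 in BIO, 105 in CHIR99021 and 237 in vitamin C. miR-136-3p was at 142 CPM in DMSO, 109 in ddH2O, 237 in retinoic acid, 56.7 in BIO, 65.1 in CHIR99021 and 129.6 in vitamin C. Both arms of Mir136 were highest in retinoic acid and lowest in the GSK3 inhibitor libraries. miR-433-5p was at 221 CPM in DMSO, 234 in ddH2O, 193 in retinoic acid, 175 in BIO, 141 in CHIR99021 and 233 in vitamin C, and miR-127-5p was at 160.1 CPM in DMSO, 156 in ddH2O, 249.6 in retinoic acid, 119.5 in BIO, 126 in CHIR99021 and 180.4 in vitamin C. miR-434-5p ranged from 30.5 to 83.7 CPM.

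Among the 5 hairpins before Rtl1, the Meg3-proximal Mir673 and Mir493 were the least abundant and the trio around Mir337 was intermediate. miR-337-5p was measured at 659.8 CPM in DMSO, 641 in ddH2O, 841 in retinoic acid, 462 in BIO, 363 in CHIR99021 and 568 in vitamin C. miR-665-3p was at 617 CPM in DMSO, 562 in ddH2O, 699 in retinoic acid, 423 in BIO, 335 in CHIR99021 and 556 in vitamin C. These arms had the same order of libraries, with retinoic acid first and CHIR99021 last. miR-540-3p was at 312 CPM in DMSO, 262 in ddH2O, 240.0 in retinoic acid, 153 in BIO, 139 in CHIR99021 and 308 in vitamin C. Its partner miR-540-5p was at 112 CPM in DMSO, 90.4 in ddH2O, 126 in retinoic acid, 82.4 in BIO, 116 in CHIR99021 and 194 in vitamin C. Neither arm of Mir540 was highest in retinoic acid: the 3p arm was highest in DMSO, close to vitamin C, and the 5p arm in vitamin C. miR-337-3p was at 88.2 CPM in DMSO, 105 in ddH2O, 193 in retinoic acid, 71.4 in BIO, 51.1 in CHIR99021 and 142 in vitamin C. miR-493-5p was at 54.8 CPM in DMSO, 57.2 in ddH2O, 100.1 in retinoic acid, 51.9 in BIO, 42.0 in CHIR99021 and 53.4 in vitamin C. Of the rarer arms, miR-673-5p ranged from 30.8 to 59.5 CPM and miR-493-3p from 2.86 to 13.7 CPM, and miR-673-3p and miR-665-5p had at most 3 and 9 tags in a library.

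**Figure D1:**
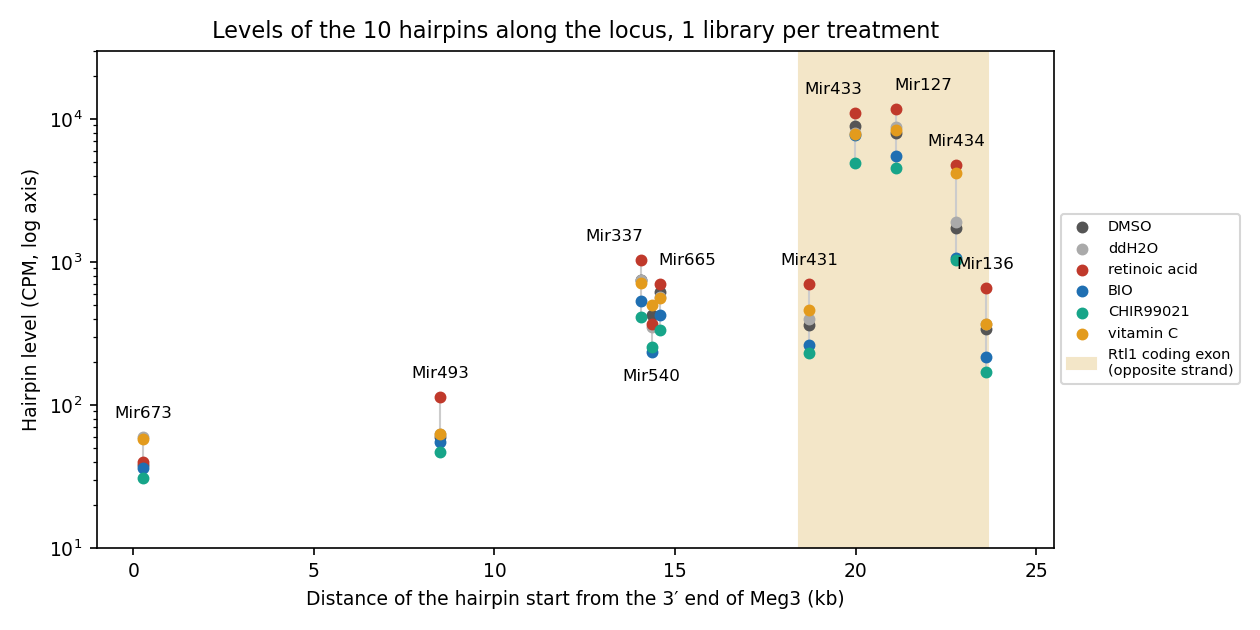
Level of each hairpin (CPM, log axis) against the distance of its start from the 3′ end of Meg3 in kb, with 1 point per library and the Rtl1 coding exon shaded. The 3 most abundant hairpins, Mir433, Mir127 and Mir434, lie in the shaded region, and Mir673, 264 bases past Meg3, is the least abundant, its counting interval overlapping that of Mir493 in 4 of 6 libraries.

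**Figure D2:**
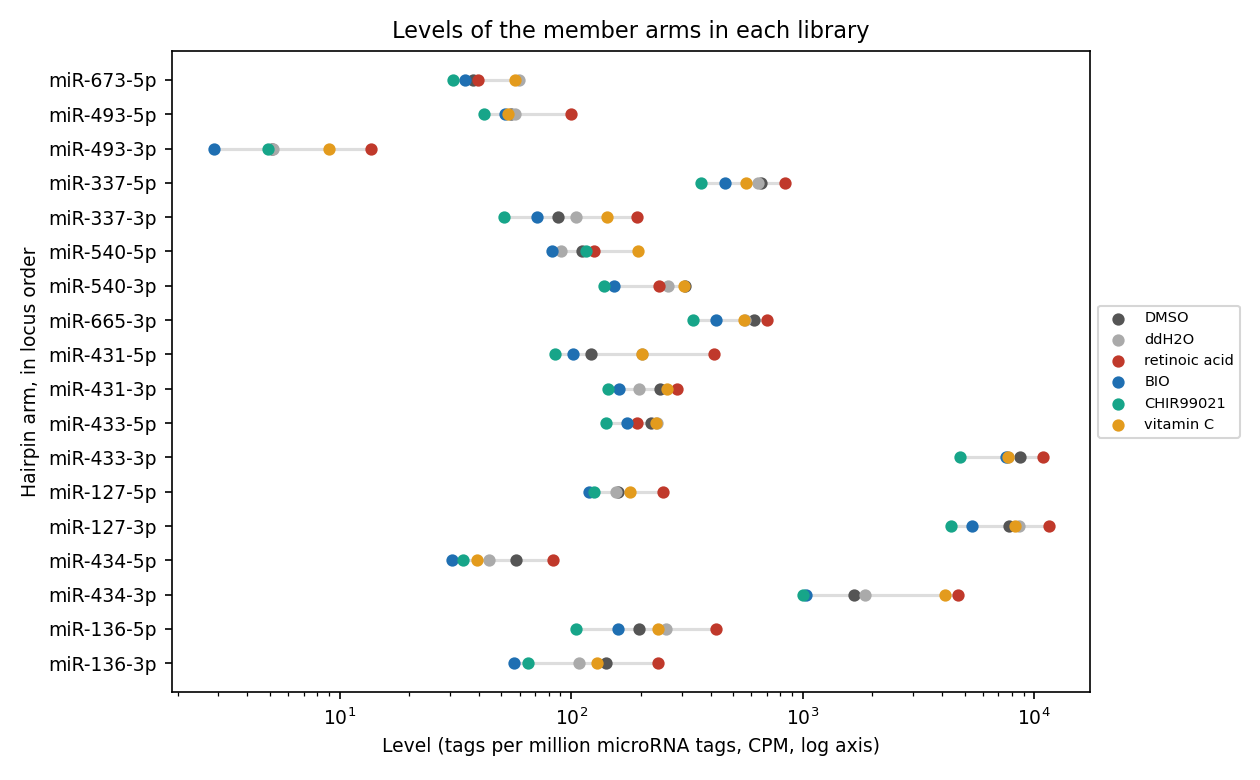
Level of the 18 arms that reached 10 CPM (CPM, log axis), with 1 point per library and a line from the lowest to the highest. The retinoic acid points lie furthest right in most arms and the CHIR99021 or BIO points furthest left on the scale of microRNA tags; per tag of any kind the summed level was highest in DMSO.

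As whole hairpins, after Mir433, Mir127 and Mir434 came Mir337 in all 6 libraries, then Mir665, then Mir540, Mir431 and Mir136 in varying order, then Mir493 and Mir673. Neighbours whose counting intervals overlapped were Mir431 and Mir136 in DMSO, Mir431, Mir136 and Mir540 in ddH2O, Mir665, Mir431 and Mir136 in retinoic acid, Mir431, Mir540 and Mir136 in BIO, Mir540 and Mir431 in CHIR99021, and Mir665, Mir540 and Mir431 in vitamin C. Mir493 and Mir673 overlapped in BIO, CHIR99021, ddH2O and vitamin C.

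Over the 15 arms that reached 100 CPM, and on that scale, the retinoic acid library was the highest in 12, and DMSO (miR-540-3p), ddH2O (miR-433-5p) and vitamin C (miR-540-5p) in 1 each. CHIR99021 was the lowest in 12 and BIO in 3 (miR-540-5p, miR-127-5p and miR-136-3p). The widest range among them was that of miR-431-5p, 4.83-fold from lowest to highest, followed by miR-434-3p with 4.71-fold. The narrowest was that of miR-433-5p, with 1.65-fold.

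Retinoic acid was compared with DMSO to ask how the microRNAs stand after a day under a differentiation signal. The summed level of the members was 1.48-fold higher (95% interval 1.45 to 1.501) per microRNA tag, but on the log2 scale this difference of 0.56 became 0.050 with trimmed mean of M-values (TMM) scaling, 0.20 with median-of-ratios scaling and -1.04 per tag of the whole library, so that its direction turned. A difference counts as called from a ratio of 2-fold or more whose 95% interval leaves out 1, with 10 CPM or more in the higher library. On that rule 5 of the 18 arms compared (27.8%) were called higher and 0 lower, beside 33.1% called higher and 7.68% called lower among all 534 arms compared, so the members' share is near that of the background. Scaled to all tags of the library, 0 of 18 were called higher and 10 lower, beside 9.55% and 55.1% of all arms. The median log2 ratio of the members was 0.55 and that of all arms 0.46.

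miR-431-5p had the largest called difference, 3.395-fold higher (95% interval 2.87 to 4.02). miR-434-3p was 2.83-fold higher (95% interval 2.70 to 2.97). miR-337-3p and miR-136-5p were 2.19-fold and 2.15-fold higher. miR-493-3p was 2.69-fold higher (95% interval 1.02 to 6.97), from 11 tags in DMSO and 10 in retinoic acid. Per tag of the whole library only miR-431-5p of these stayed above 0, with a log2 ratio of 0.16, and the other 4 turned to between -0.50 and -0.098. With TMM scaling miR-431-5p was the 1 arm still called (log2 1.25), and with median-of-ratios scaling it and miR-434-3p were (log2 1.40 and 1.14). Per microRNA tag, miR-127-3p was 1.48-fold higher (95% interval 1.44 to 1.52) and miR-433-3p 1.26-fold higher (95% interval 1.22 to 1.29). Per tag of the whole library both were called lower (log2 -1.04 and -1.27), and miR-433-3p was also below 0 with TMM (-0.18) and median-of-ratios scaling (-0.034). Without these 2 the summed level per microRNA tag was 1.89-fold higher (95% interval 1.83 to 1.95). That value rests largely on miR-434-3p, which held 4704 of the 8846 CPM in retinoic acid and 1659 of the 4689 CPM in DMSO. miR-540-3p, 1.30-fold lower (95% interval 1.10 to 1.54), and miR-433-5p were the 2 arms compared with ratios below 1 on that scale.

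Against ddH2O as control, 3 arms were called in place of 5: miR-431-5p (log2 1.03), miR-434-3p (1.34) and miR-136-3p (1.13). Beside these values, the embryonic stem cell marker arms summed to 154416 CPM in retinoic acid and 272288 in DMSO, and the muscle marker arms (4 arms, none at 0) to 6326 and 1406. The neuronal marker arms (4 arms, none at 0) summed to 1255 and 2438. The part of these differences in the result was not tested.

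The GSK3 inhibitors, the indirubin BIO and the aminopyrimidine CHIR99021, were given at different doses, so their values are set side by side without a comparison. Both share the DMSO control. In BIO the summed level was 1.32-fold lower (95% interval 1.30 to 1.33) than in DMSO, and in CHIR99021 it was 1.77-fold lower (95% interval 1.74 to 1.80). The sums stayed below DMSO under every scaling tried, from -0.27 to -0.67 on the log2 scale in BIO and from -0.72 to -1.75 in CHIR99021. Per microRNA tag, 17 of the 17 arms compared in BIO had ratios below 1, with a median log2 ratio of -0.44 against -0.094 over all arms, of which 58.1% were below. The count of 17 depends on the scaling. The log2 ratios of miR-493-5p (-0.076) and miR-673-5p (-0.11) are smaller than the upward shift of 0.13 from median-of-ratios scaling, which puts both above 0. In CHIR99021 16 of 17 were below 1, with a median of -0.75 against -0.11 over all arms, of which 55.8% were below. In both comparisons 2 of 17 arms (11.8%) were called lower and 0 higher. The background was 5.3% called lower and 1.91% called higher of 472 arms in BIO, and 12.3% and 6.25% of 480 arms in CHIR99021. The members' share called lower in CHIR99021 is thus near that of the background. Scaled to all tags of the library, 16 of 17 arms were called lower in CHIR99021, beside 52.5% of all arms.

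The arms called lower were miR-540-3p and miR-136-3p in both. miR-540-3p was 2.04-fold lower (95% interval 1.78 to 2.34) in BIO and 2.24-fold lower (95% interval 1.91 to 2.64) in CHIR99021. miR-136-3p was 2.51-fold lower (95% interval 2.02 to 3.12) in BIO and 2.18-fold lower (95% interval 1.72 to 2.78) in CHIR99021. miR-433-3p was 1.14-fold lower in BIO and 1.80-fold lower in CHIR99021. For miR-127-3p the values were 1.45-fold and 1.78-fold lower, and for miR-434-3p 1.60-fold and 1.66-fold lower. miR-540-5p, from the same hairpin as miR-540-3p, was 1.36-fold lower (95% interval 1.11 to 1.66) in BIO and 1.03-fold higher (95% interval 0.842 to 1.26) in CHIR99021.

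Both BIO calls were lost over tags of 20 to 24 bases and against the other vehicle. That of miR-540-3p, whose fold was close to the threshold, was also lost with TMM (log2 -0.92), with median-of-ratios scaling (-0.90), over the most abundant tag (-0.81) and with unmatched ends counted (-0.81), while miR-136-3p stayed called under these 4. Tags of 18 and 19 bases made up 47.7% in DMSO, 23.2% in ddH2O, 31.2% in retinoic acid, 15.1% in BIO, 41.9% in CHIR99021 and 41.2% in vitamin C of the tags of miR-136-3p, and 22.9% in DMSO, 13.3% in ddH2O, 15.4% in retinoic acid, 11.8% in BIO, 18.1% in CHIR99021 and 17.2% in vitamin C of those of miR-540-3p. Over tags of 20 to 24 bases alone the log2 ratios in BIO were -0.67 for miR-136-3p and -0.88 for miR-540-3p, and neither was called. In CHIR99021 they were -0.99 and -1.10, and miR-540-3p stayed called. Against ddH2O no member was called in BIO (log2 -0.94 for miR-136-3p and -0.78 for miR-540-3p), and in CHIR99021 3 others were: miR-337-3p (-1.03), miR-431-5p (-1.24) and miR-136-5p (-1.29). The liver microRNA miR-122 (2 arms) summed to 1325 CPM in the CHIR99021 library and to 22.4 to 54.9 in the others, and both miR-133a arms of the muscle list were at 0 in CHIR99021. The part of these markers in the CHIR99021 values was not tested.

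Vitamin C was compared with ddH2O, its vehicle. The summed level was 1.10-fold higher (95% interval 1.08 to 1.11), and the median log2 ratio of the members was -0.0037, against -0.013 over all arms. Of 17 arms compared 2 were called higher and 0 lower, beside 5.98% and 1.44% of all 485 arms. miR-434-3p was 2.21-fold higher (95% interval 2.12 to 2.31), and miR-540-5p 2.14-fold higher (95% interval 1.77 to 2.60). The other arms of the same hairpins differed less: miR-434-5p was 1.12-fold lower (95% interval 0.807 to 1.57) and miR-540-3p 1.18-fold higher (95% interval 1.04 to 1.33). miR-433-3p and miR-127-3p were 1.01-fold and 1.04-fold lower, and without them the summed level was 1.504-fold higher (95% interval 1.46 to 1.55). That value rests on miR-434-3p: without it as well, the rest was 1.06-fold higher (95% interval 1.02 to 1.10).

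miR-434-3p was called against either vehicle (log2 1.31 against DMSO). Its main tags, of 22 and 21 bases, had 3647 and 3452 counts in vitamin C and 1414 and 1590 in ddH2O. miR-540-5p was called against ddH2O alone (log2 0.79 against DMSO), and over its most abundant tag, of 23 bases, the log2 ratio was 0.35. That tag length held 46.8% of the tags of miR-540-5p in ddH2O and 28.1% in vitamin C. The neuronal marker arms summed to 5808 CPM in vitamin C and 3267 in ddH2O, and the part of this in the result was not tested.

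The vehicles compared with each other give a measure of how far libraries without an active compound lie apart. The summed level in ddH2O was 1.00 times that in DMSO (95% interval 0.986 to 1.01) per microRNA tag. Under the other scalings the log2 ratio of the sum was -0.11 (TMM), -0.090 (median of ratios) and -0.41 (all tags). By the same rule 0 of 17 member arms were called, beside 4.97% higher and 2.28% lower of 483 arms. Per microRNA tag, single arms differed more than the sum: miR-431-5p was 1.66-fold higher (95% interval 1.41 to 1.96), miR-673-5p 1.58-fold higher (95% interval 1.17 to 2.14) and miR-136-3p 1.31-fold lower (95% interval 1.09 to 1.57). The intervals of these 3 exclude 1, so they differed between the vehicle libraries by more than counting error. Among the 17 arms compared, the same holds for miR-540-5p, miR-540-3p, miR-665-3p, miR-431-3p, miR-433-3p, miR-127-3p, miR-434-3p and miR-136-5p. Their folds, in either direction, ran from 1.10 (miR-665-3p) to 1.31 (miR-136-5p). The intervals of the remaining arms compared include 1. With 1 library of each vehicle, spread between libraries and a difference between the vehicles cannot be told apart.

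**Figure D3:**
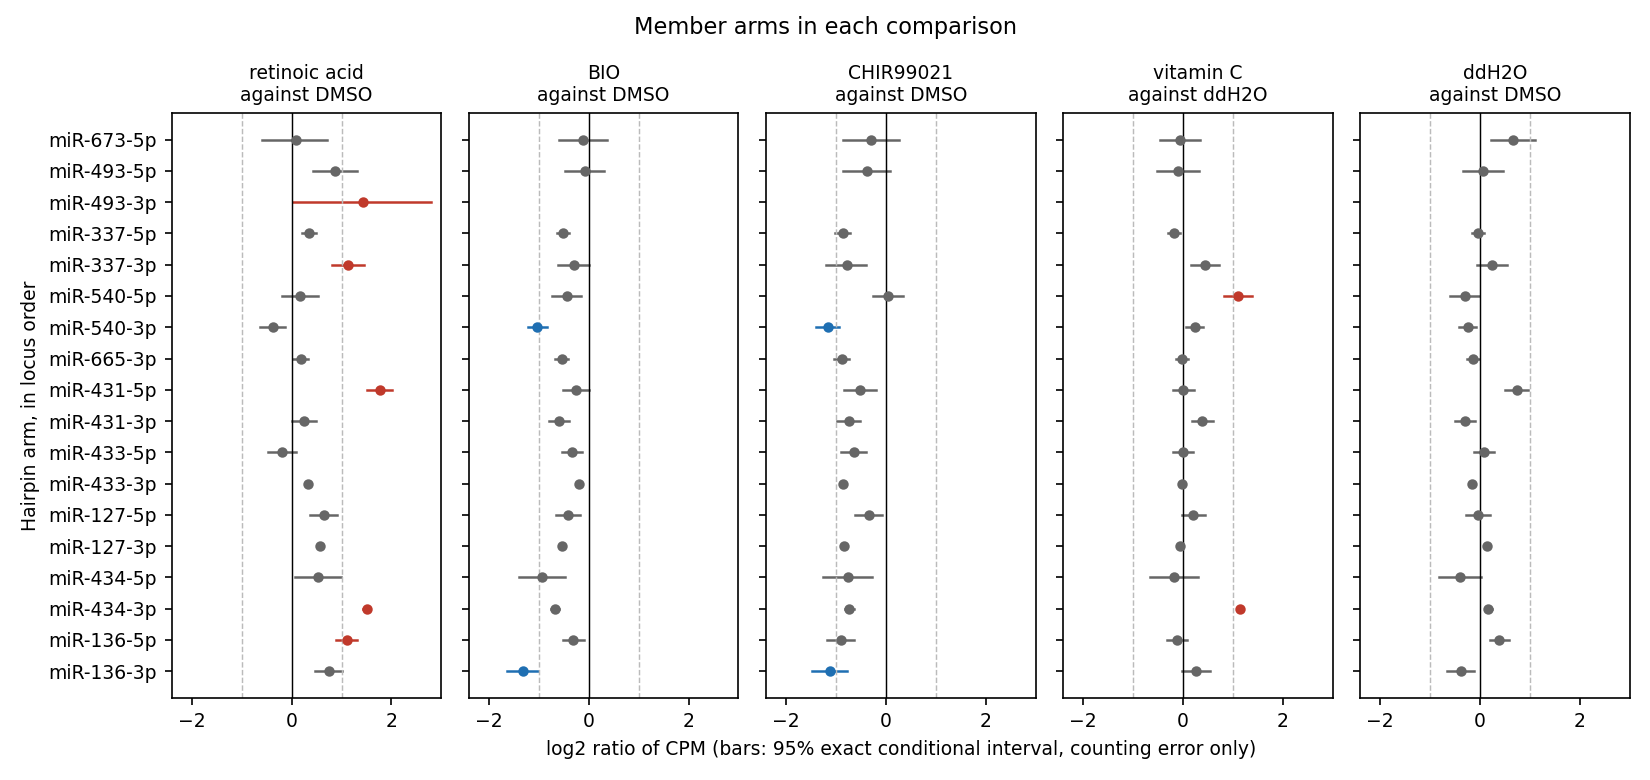
Log2 ratio of CPM for the 18 arms that reached 10 CPM, in 5 comparisons, with 95% exact conditional intervals for counting error. Red points were called higher and blue points lower, dashed lines mark 2-fold, and arms under 10 CPM in both libraries are not drawn. Nearly all BIO and CHIR99021 points lie left of 0, while the retinoic acid points lie mostly right of it on the scale of microRNA tags and would shift left by 1.60 per tag of the whole library.

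The rest of the domain was described by 2 lists, the 40 hairpins of the distal Mirg cluster and the 3 hosted by Rian. The Mirg list had a median log2 ratio of 0.52 in retinoic acid, where the proximal members had 0.55. In BIO the medians were -0.59 and -0.44, and in CHIR99021 -0.92 and -0.75. In vitamin C they were 0.011 and -0.0037, and between the vehicles -0.11 and -0.036. These comparisons share the DMSO library except that of vitamin C, and the retinoic acid medians of both lists move with the scaling by the same amount as the sum. The called arms of the Mirg list were 12 higher of 56 (21.4%) in retinoic acid, beside 33.1% of all arms. They were 8 lower of 54 (14.8%) in BIO, beside 5.3%, and 22 lower of 54 (40.7%) in CHIR99021, beside 12.3%. None was called in the opposite direction. In vitamin C 0 of 58 were called, beside 5.98% higher and 1.44% lower of all arms. Between the vehicles 0 of 58 were called, beside 4.97% higher and 2.28% lower. The Rian list (4 or 5 arms compared) had medians of 0.49, -0.88, -0.70, 0.11 and -0.60 in the same order. Its called arms were 2 higher and 1 lower of 5 in retinoic acid, 1 lower of 4 in BIO, 2 lower of 4 in CHIR99021, 1 higher of 4 in vitamin C and 0 of 4 between the vehicles. Over all arms 33.1% were called higher and 7.68% lower in retinoic acid, 5.3% lower in BIO, 12.3% lower in CHIR99021 and 5.98% higher in vitamin C. With 4 or 5 arms compared, the list is too small to be read against these shares. In vitamin C its summed level was 4.42-fold higher, where that of the proximal members was 1.10-fold higher and that of the Mirg list 1.06-fold higher. miR-770-3p, from a hairpin within Meg3 just before the members, was at 174 CPM in DMSO, 234 in ddH2O, 289 in retinoic acid, 174 in BIO, 114 in CHIR99021 and 243 in vitamin C.

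Within the group the 5 hairpins inside Rtl1 and the 5 before it were summed apart. In retinoic acid the summed level was 1.51-fold higher (95% interval 1.48 to 1.53) for those inside and 1.19-fold higher (95% interval 1.13 to 1.27) for those before, per microRNA tag. With TMM, median-of-ratios and all-tags scaling the log2 ratios were 0.076, 0.23 and -1.01 inside and -0.26, -0.11 and -1.34 before, so the direction turned under all tags for the former and under all 3 for the latter. In CHIR99021 the values were 1.77-fold and 1.74-fold lower, in BIO 1.30-fold and 1.47-fold lower, and in vitamin C 1.10-fold and 1.06-fold higher.

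Likeness of pattern was taken as Pearson's r of log2(CPM + 0.5) with the summed level of the members over the 6 libraries, as a description, for the 236 other arms with a mean of 100 CPM or more. The points share their libraries and their scaling to microRNA tags. The 5 most alike were miR-376c-3p, miR-495-3p and miR-329-3p, each with r of 0.99, the merged 3p arm of 11 Mir669a hairpins and Mir669o (0.99), and miR-154-5p (0.98). Of the 20 most alike, 13 were among the 36 ranked arms of the Mirg list and 0 among the 2 ranked arms of the Rian list. Among the members themselves, each of the 15 arms that reached 100 CPM was set against the sum of the other members. Among these arms r was 0.98 for miR-136-5p and 0.97 for miR-337-3p, and lowest for miR-540-5p (0.35), miR-433-5p (0.70) and miR-540-3p (0.75). The rarer arms were not ranked.

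The arms of a hairpin are cut from 1 precursor, and the share of its tags from the 3p arm compares them within a library. In 4 hairpins (Mir433, Mir127, Mir434 and Mir665) the 3p arm held at least 96.6% in every library. Mir673 and Mir493 gave mostly 5p tags, with 3p shares up to 3.95% and 14.4%. For Mir431 the 3p share was 66.6% in DMSO, 49.4% in ddH2O, 41.1% in retinoic acid, 61.3% in BIO, 62.9% in CHIR99021 and 56.1% in vitamin C. The share was thus lower in retinoic acid than in any other library, its interval of 36.8% to 45.5% overlapping none of theirs, but the vehicles differed from each other as well. For Mir540 it was 73.6% in DMSO, 74.4% in ddH2O, 65.5% in retinoic acid, 65.0% in BIO, 54.7% in CHIR99021 and 61.4% in vitamin C. The CHIR99021 share, with an interval of 49.4% to 59.9%, lay below both vehicles, and so did those of BIO (60.6% to 69.2%) and vitamin C (58.3% to 64.5%). The intervals of the vehicles overlap. These shares count exactly matching tags only, and miR-540-3p had unmatched ends on 21.2% of its tags in DMSO and 33.1% in BIO. Its exact tags of 18 and 19 bases made up 22.9% in DMSO and 11.8% in BIO. Whether the difference between BIO and DMSO holds with unmatched ends counted, or over longer tags, was not tested. Mir136 had 3p shares of 41.9% in DMSO, 29.7% in ddH2O, 35.97% in retinoic acid, 26.3% in BIO, 38.3% in CHIR99021 and 35.4% in vitamin C, and Mir337 of 11.8% in DMSO, 14.0% in ddH2O, 18.7% in retinoic acid, 13.4% in BIO, 12.3% in CHIR99021 and 20.03% in vitamin C. Shares within a hairpin do not depend on the scaling of the library, but they can depend on the tag lengths counted. Tags of 18 and 19 bases made up 47.7% of miR-136-3p and 9.20% of miR-136-5p in DMSO, and 15.1% and 3.29% in BIO. The shares over longer tags alone were not computed.

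**Figure D4:**
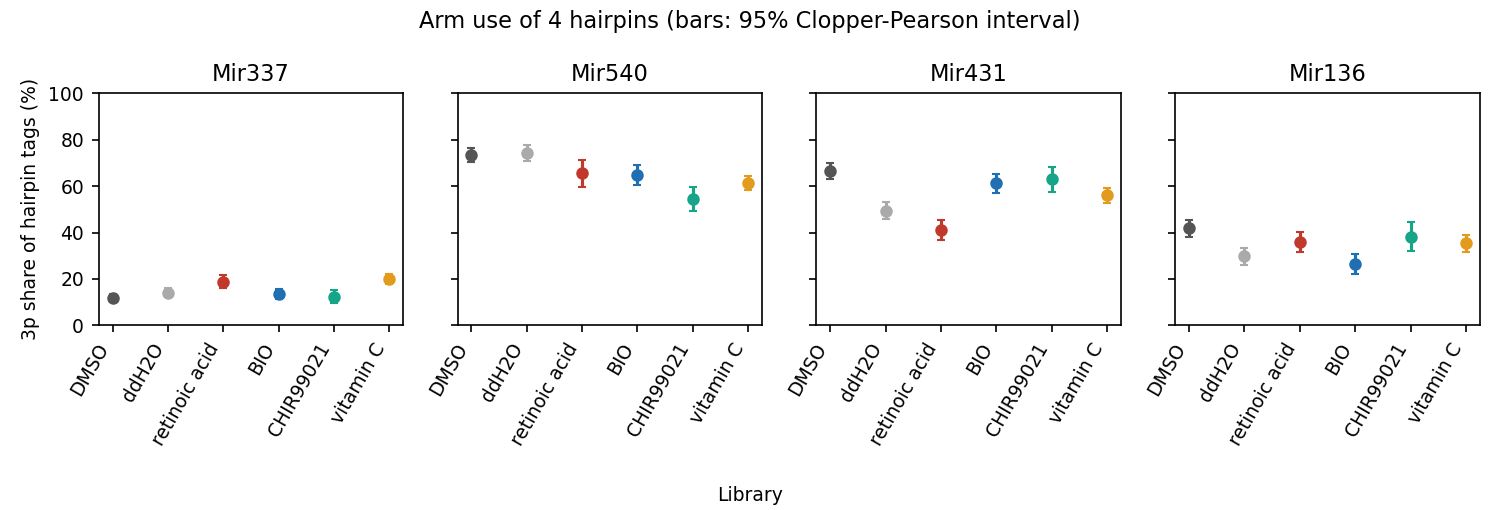
Share of a hairpin's exactly matching tags that come from the 3p arm (%) in each of 6 libraries, for the 4 hairpins that used both arms, with 95% Clopper-Pearson intervals. Mir431 has its lowest share in retinoic acid, Mir540 in CHIR99021 and Mir136 in BIO.

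The first base of a microRNA sets its seed. The most abundant tag of 17 of the 20 arms began at the RefSeq start. The other 3 began 2 bases earlier (miR-431-3p), 2 bases later (miR-127-5p) and 1 base earlier (miR-136-3p), which changes their seeds. Their tags are printed as sequenced, with bases 2 to 8 in capitals.
miR-431-3p tag: tGCAGGTCgtcttgcagggcttc
miR-127-5p tag: gAAGCTCAgagggctctgattc
miR-136-3p tag: cATCATCGtctcaaatgagtc
The RefSeq start of miR-136-3p held a median of 7.38% of its tags over the 6 libraries, while that of miR-127-5p held 33.8% to 47.9%, close to the 32.7% to 51.3% of the start 2 bases later. miR-337-3p was divided between its RefSeq start (41.1% to 54.6%) and the base before it (40.4% to 54.1%). miR-433-3p began 1 base late in 17.3% to 22.2% of its tags, and miR-127-3p was uniform, with 99.6% to 99.8% at 1 start.

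Many member tags ended in bases that do not match the hairpin. Such 3′ ends were counted where at least 18 bases matched and 1 to 3 further bases did not, and a sequencing error at the end of a tag is counted among them. miR-127-3p carried them in 45.9% in DMSO, 50.2% in ddH2O, 46.3% in retinoic acid, 51.3% in BIO, 51.8% in CHIR99021 and 49.1% in vitamin C of its tags, against 10.6% to 15.5% of all microRNA tags and 7.77% to 11.2% of the other member tags. The share was above that of every other member arm measured, though the intervals of DMSO (45.4% to 46.5%) and CHIR99021 (50.9% to 52.7%) do not overlap. The share of the other members is pooled, and miR-433-3p, their most abundant arm, had 7.05% to 9.37%. Single arms lay higher: miR-665-3p at 19.9% to 35.2%, miR-673-5p at 22.4% to 34.7% and miR-540-3p at 21.2% to 33.1%. The most frequent forms of miR-127-3p are printed with the unmatched bases in capitals.
matched form: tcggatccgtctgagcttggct
ending in AT: tcggatccgtctgagcttggctAT
ending in T: tcggatccgtctgagcttggctT
ending in A: tcggatccgtctgagcttggctA
The first had 15491 counts in DMSO and the next 3 had 3939, 3151 and 1668. The end AT was on 15.5% to 19.5% of the miR-127-3p tags over the 6 libraries, T on 11.5% to 12.1% and A on 6.89% to 9.12%. With these ends counted Mir127 was the most abundant member in all 6 libraries, and Mir665 lay above Mir337 in 5 of 6. Mir673 then lay above Mir493 in 2 of 6 (ddH2O and vitamin C), with overlapping counting intervals. Scaled to a total that includes such tags, Mir127 was, for example, at 13071 CPM in DMSO beside 8531 for Mir433.

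Other arms differed in the kind of end and between libraries. miR-665-3p had unmatched ends on 29.4% in DMSO, 33.5% in ddH2O, 19.9% in retinoic acid, 34.3% in BIO, 35.2% in CHIR99021 and 31.4% in vitamin C of its tags, mostly a single T. The retinoic acid share, with a 95% interval of 16.9% to 23.3%, lay below the intervals of the other 5. miR-431-3p also had its lowest share in retinoic acid, 10.6% (7.004% to 15.3%), against 23.3% to 31.2% in the others. Over all microRNAs the retinoic acid library had the highest share of unmatched ends, so these 2 arms ran opposite to the whole. miR-136-5p had an unmatched end on 8.42% in DMSO, 12.6% in ddH2O, 14.2% in retinoic acid, 18.5% in BIO, 21.9% in CHIR99021 and 11.6% in vitamin C of its tags, nearly always a single A. The BIO and CHIR99021 shares were above DMSO without overlap of intervals (14.9% to 22.6% and 16.2% to 28.4%, against 6.06% to 11.3%). The ddH2O interval, 9.88% to 15.8%, overlapped that of BIO but not that of CHIR99021. Low shares over the 6 libraries were those of miR-434-3p (1.97% to 3.39%), miR-433-5p (0.832% to 1.68%) and miR-136-3p (0% to 2.56%).

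**Figure D5:**
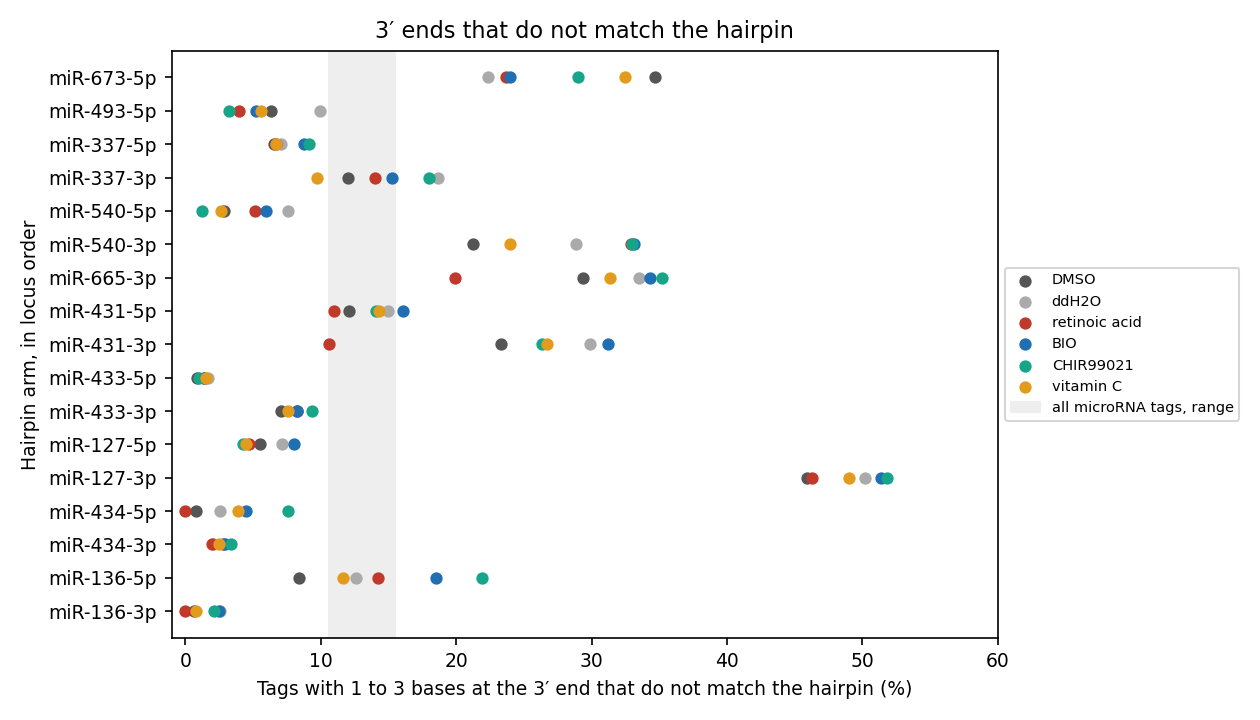
Share of tags (%) with 1 to 3 bases at the 3′ end that do not match the hairpin, for the 17 arms with at least 20 tags in every library and 1 point per library; the grey band is the range over all microRNA tags. miR-127-3p stands apart at 45.9% to 51.8%.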

How the data were processed

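The deposited files give, per library, each distinct tag, the authors' raw count of it and its length in bases; per the submitters' processing notes the genome build was mm9, and the trimming and any aligner are not given in the sources used here. The counts are whole numbers. Per the labels, total RNA was taken with TRIzol and libraries were made with a TruSeq RNA kit. Coordinates come from a separate match to GENCODE M21 and RefSeq on GRCm38, and none was converted.

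Tags of 18 to 26 bases were matched exactly to 1174 Mir hairpins. An arm holds the tags that start within 2 bases of its most abundant tag, tags that match several arms were split evenly, and tags that also match ribosomal, mitochondrial, small nuclear or small nucleolar RNA were left out. CPM is per 1000000 microRNA tags. Ratios have exact conditional (Clopper-Pearson) intervals at 95%, computed with scipy 1.17.1 (Python 3.11.15). With 1 library a group there is no test between treatments. The counting and the intervals were tested on simulated data. Alternatives used edgeR 4.0.16 (TMM) and DESeq2 1.42.0 (size factors) in R 4.3.3. Every member hairpin is accounted for, and arms at 100 CPM or more are given in all 6 libraries. The members, the Mirg and Rian lists, the marker lists and the rules were chosen with earlier results of these data known.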

Additional observations from a re-analysis of the deposited data

Results flagged for a closer look

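The other strand of the 10 hairpins, which the counts above do not use, held 7 exact tags of 18 to 26 bases in all 6 libraries, against 200792 on the sense strand. All 7 matched Mir337: 5 in BIO, 1 in CHIR99021, 1 in vitamin C and 0 in DMSO, ddH2O and retinoic acid. They are listed because BIO had tags where both vehicles had 0, a count that allows up to 3 tags, and no difference between libraries is read from so few. They fall on the annotated hairpin Mir3544, which lies opposite Mir337. There was no such tag for the other 9 hairpins, the 5 inside Rtl1 included.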

How the results depend on the processing

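Scaling moved all log2 ratios of a comparison together: in retinoic acid by -0.51 (TMM), -0.36 (median of ratios) and -1.60 (all tags), in BIO by 0.11, 0.13 and -0.28, in CHIR99021 by 0.07, 0.10 and -0.93, in vitamin C by 0.01, -0.03 and 0.10, and between the vehicles by -0.11, -0.09 and -0.41. The summed log2 ratios in that order were 0.050, 0.20 and -1.04 in retinoic acid, -0.28, -0.27 and -0.67 in BIO, -0.75, -0.72 and -1.75 in CHIR99021, 0.11 (median of ratios) and 0.23 (all tags) in vitamin C, and -0.11, -0.090 and -0.41 between the vehicles. With unmatched ends counted they were 0.48, -0.35, -0.75, 0.067 and 0.081 in the same order of comparisons, and over the most abundant tag of each arm -0.46 in BIO, -0.88 in CHIR99021, 0.073 in vitamin C and -0.021 between the vehicles. Over tags of 20 to 24 bases BIO had -0.43. Called arms in retinoic acid numbered 1 (TMM), 2 (median of ratios), 10 lower (all tags) and 3 (other vehicle), against 5. In BIO, against 2, they numbered 1 with TMM, median of ratios, the most abundant tag or unmatched ends, and 0 with 20 to 24 bases or the other vehicle. In CHIR99021, against 2, they numbered 16 with all tags and 1 with unmatched ends or 20 to 24 bases, and in vitamin C, against 2, 1 with the most abundant tag or the other vehicle. Scaled to all tags, 55.1% of all arms were called lower in retinoic acid and 52.5% in CHIR99021. For the other alternative settings, here and above, the share over all arms was not computed. Those counts are therefore not read as a result about the members. Per tag of the whole library 4 arms called higher in retinoic acid turned: miR-493-3p (-0.17), miR-337-3p (-0.47), miR-434-3p (-0.098) and miR-136-5p (-0.50). Apart from scaling, which is a shift by construction, the cause was not tested. Every other setting tried kept the counts within 1.5 times and the sums within the counting interval. No paired analysis was possible because each group held 1 library, and no library could be left out for the same reason. Depth limits the rare arms most: miR-493-3p had 6 to 17 tags in a library.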

Other observations

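Short tags of 18 and 19 bases made up 0.640% to 1.80% of the tags of the 10 hairpins in a library and 1.67% to 4.95% of all microRNA tags. They made up at most 0.154% of the tags of miR-127-3p in a library, 14.1% to 38.8% of those of miR-434-5p and 15.1% to 47.7% of those of miR-136-3p.

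Of the other hairpins near the group, miR-770-5p had 13 to 36 tags in a library, and the arm of the Mir3070 hairpins with the most tags, miR-3070b-3p, had 1 to 10.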
